A study of Mus musculus with 24 samples.

Results

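The genes described are 42 effector genes that type I interferon induces, measured by poly(A) RNA sequencing in 2 kinds of mouse macrophage. They were chosen by name: a gene was included when its symbol in both deposited tables was one of 42 symbols of interferon-stimulated effectors, and all 42 were found among the 56691 genes that each table lists. All 42 also passed the only filter on low values, an FPKM (a count of fragments divided by transcript length and by library depth) above 0 in at least 1 library, which left 26740 genes for RAW264.7 cells and 26973 for bone marrow-derived macrophages (BMDM). In RAW264.7 cells Trim30d passed through its LPS libraries alone, since it was listed at 0 in all PBS libraries.

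Type I interferons, the interferon alpha proteins and interferon beta, bind a shared receptor whose kinases JAK1 and TYK2 activate the transcription factor complex ISGF3. ISGF3 binds interferon-stimulated response elements (ISREs) near target genes and switches on effectors that block virus entry, translation, assembly and release. Macrophages keep a low level of these effectors at rest, through small amounts of interferon that the cells themselves release, and raise them strongly when lipopolysaccharide (LPS), a bacterial cell wall lipid, acts on TLR4 and induces interferon beta.

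The study asked what loss of Olfml3, which encodes the secreted glycoprotein olfactomedin-like 3, does to macrophages at rest and under LPS. RAW264.7 is a mouse macrophage line, and its cells labelled Olfml3 knockout were made with a lentiviral CRISPR-Cas9 guide and grown from single cells, so clone and genotype cannot be told apart in them. The BMDMs were grown from bone marrow of male C57BL/6 mice, either wild type or of a whole-body Olfml3-/- line made with CRISPR-Cas9, in medium with L929 cell supernatant as the source of macrophage colony-stimulating factor. Each cell type gave 4 groups of 3 libraries: wild type with PBS, knockout with PBS, wild type with LPS (100 ng/mL, given for 4 h) and knockout with the same LPS, which makes 8 groups and 24 libraries. The study calls the libraries of a group biological replicates, but the labels do not say whether they came from separate cultures or animals, so the p-values measure the spread between these libraries, which may be technical.

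The summed counts were 11638273 to 16478616 in a RAW264.7 library and 17121240 to 22873094 in a BMDM library. Olfml3 matched the labels in BMDM, with FPKM of 0.61, 0.53 and 0.65 in wild type with PBS against 0.03, 0.01 and 0.01 in knockout. In RAW264.7 it went against them, with 0.19, 0.15 and 0.15 in wild type with PBS, 0.65, 1.01 and 1.19 under the knockout label with PBS, and 18.93, 18.77 and 18.33 under that label with LPS, so every RAW264.7 result is given for the libraries as labelled. The labels used are the sample titles, which the genotype tag of some samples contradicts. Among RAW264.7 PBS libraries with the knockout label, replicate 1 stood apart from replicates 2 and 3. Chi-square per degree of freedom, a measure of the difference between a pair of libraries, was 80.3 and 81.1 between replicate 1 and each of them. Between replicates 2 and 3 the value was 2.28. The correlation of replicate 1 with replicates 2 and 3 across genes was 0.964, against 0.973 with the wild-type PBS libraries. Counts of calls in the comparisons of its group are also given without it. The other RAW264.7 comparisons share their estimate of spread with it and were not redone without it. Of the macrophage markers, 6 of 7 were present in RAW264.7, where Mertk was at 0, and all 7 in BMDM. In RAW264.7 their summed FPKM was 1304 to 1337 in wild type and 885 to 1012 in the labelled knockout with PBS, and 1708 to 1762 and 816 to 845 with LPS, with 3 of the 6 called lower in each treatment, and their part in the results was not tested. In BMDM 4 of 6 T cell markers, Cd3d, Cd3e, Cd3g and Cd8a, were at 0 in every group, and Cd4 and Lck were not. Their sum was 7.73 to 8.67 in wild type and 6.46 to 6.80 in knockout with PBS, and 15.95 to 17.69 and 7.15 to 7.37 with LPS, where Lck was called lower, and the part of this in the results was not tested. Of 7 neutrophil markers only Ly6g was at 0 in every BMDM group, and their sum was 5.33 to 8.61 over the groups with none called between genotypes.

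Promoter sequences are shown for 4 of the genes to place the ISRE beside the measurements. The window searched ran from 250 bases before to 50 bases after a RefSeq start on GRCm38.p6, and the search took the ISRE core GAAANNGAA on either strand, which reads TTCNNTTTC on the other. Windows existed for 32 of the 42 genes. The core was in 15 of these 32 (46.9%), against 9.76% of 27025 genes with a window. The 15 were Adar, Bst2, Ddx60, Eif2ak2, Ifi44, Isg15, Lgals9, Phf11b, Rsad2, Samd9l, Trim21, Trim25, Trim30a, Trim30d and Trim34a. A longer form, the core followed by a further A, was searched first and was in 11 of the 32 (34.4%), against 3.99% of genes. The 10 genes with no window were Ifi27l2a, Mx1, Mx2, Parp9, Parp10, Parp14, Rtp4, Siglec1, Tor3a and Usp18. The 250 bases before the start are printed 5′ to 3′ along the gene with the ISRE core in capitals, for Isg15, Rsad2 and Bst2, whose values in every library are given further on, and for Pnpt1, a gene in which these letters were not found and whose level differed least between genotypes in BMDM.
Isg15 (chr4:156200819-156201068, minus strand): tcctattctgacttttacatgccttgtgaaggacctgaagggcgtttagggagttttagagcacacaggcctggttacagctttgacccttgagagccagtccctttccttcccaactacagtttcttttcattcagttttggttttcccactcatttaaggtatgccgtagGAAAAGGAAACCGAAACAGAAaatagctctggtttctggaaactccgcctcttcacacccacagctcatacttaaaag
Rsad2 (chr12:26456453-26456702, minus strand): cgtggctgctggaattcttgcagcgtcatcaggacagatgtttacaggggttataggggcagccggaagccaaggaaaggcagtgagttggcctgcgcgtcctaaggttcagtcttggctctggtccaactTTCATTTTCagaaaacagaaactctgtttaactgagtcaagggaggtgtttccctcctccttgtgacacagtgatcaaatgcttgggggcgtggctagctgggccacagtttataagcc
Bst2 (chr8:71537473-71537722, minus strand): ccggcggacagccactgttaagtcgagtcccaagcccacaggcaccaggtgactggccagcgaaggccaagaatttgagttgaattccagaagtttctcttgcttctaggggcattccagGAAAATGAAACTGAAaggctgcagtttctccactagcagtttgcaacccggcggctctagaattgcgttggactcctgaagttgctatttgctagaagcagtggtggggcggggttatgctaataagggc
Pnpt1 (chr11:29130494-29130743, plus strand): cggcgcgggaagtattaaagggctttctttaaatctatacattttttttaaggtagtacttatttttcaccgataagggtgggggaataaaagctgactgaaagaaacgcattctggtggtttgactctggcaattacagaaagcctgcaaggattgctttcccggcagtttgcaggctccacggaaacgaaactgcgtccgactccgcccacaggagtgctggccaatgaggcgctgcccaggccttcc
Isg15 carried 3 overlapping cores, whose leftmost bases lay at -78, -72 and -66 from the start. Bst2 carried 2 that overlap, at -130 and -124, and Rsad2 carried 1, at -119, on the opposite strand. A match to these letters describes the sequence and is no measurement of binding. The search took exact letters only, so a gene counted as without a core may still carry a variant of it. Pnpt1 was picked by its small difference, so these 4 promoters cannot show whether a core goes with a difference between genotypes.

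The 42 genes together were lower in Olfml3 knockout than in wild-type BMDM with PBS, and closer to wild type with LPS. The mean of log2(FPKM + 0.1) over the 42 genes was 4.08, 4.20 and 4.00 in the wild-type BMDM libraries with PBS and 2.66, 2.71 and 2.62 in the knockout libraries. With LPS it was 6.82, 6.77 and 6.80 in wild type and 6.47, 6.44 and 6.46 in knockout. The groups did not overlap in either treatment, and the group means were 4.09 ± 0.098 against 2.66 ± 0.048 with PBS and 6.80 ± 0.025 against 6.46 ± 0.012 with LPS (SD, n = 3). The genes took 0.470 ± 0.029% of all counts in wild-type BMDM with PBS and 0.214 ± 0.0038% in knockout, and 4.45 ± 0.034% and 3.64 ± 0.031% with LPS (SD, n = 3). Among the wild-type PBS libraries, replicate 2 was the highest for 39 of the 42 genes, so these genes varied together within the group as well. Whether fewer cells held these transcripts or each cell held less cannot be told apart in bulk RNA.

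In RAW264.7 the libraries labelled knockout were also lower, by a like amount in both treatments. The mean over the 42 genes was 1.501, 1.45 and 1.40 in wild type with PBS and 0.593, 0.673 and 0.650 in the libraries labelled knockout, and with LPS it was 4.98, 4.96 and 4.97 in wild type and 4.16, 4.19 and 4.19 in those labelled knockout. The groups again did not overlap, and replicate 1, which stood apart over all genes, gave the lowest of the labelled knockout PBS values here. In share of counts, wild type with PBS had 0.1143%, 0.1132% and 0.1131% and the labelled knockout 0.0925%, 0.1143% and 0.1137%, so the lower mean of the latter rests on replicate 1, and without it the share was not lower than in wild type. With LPS the shares were 0.810 ± 0.0035% and 0.705 ± 0.0025% (SD, n = 3). The tables of the cell types were normalised separately, so their levels stand side by side without a test.

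**Figure D1:**
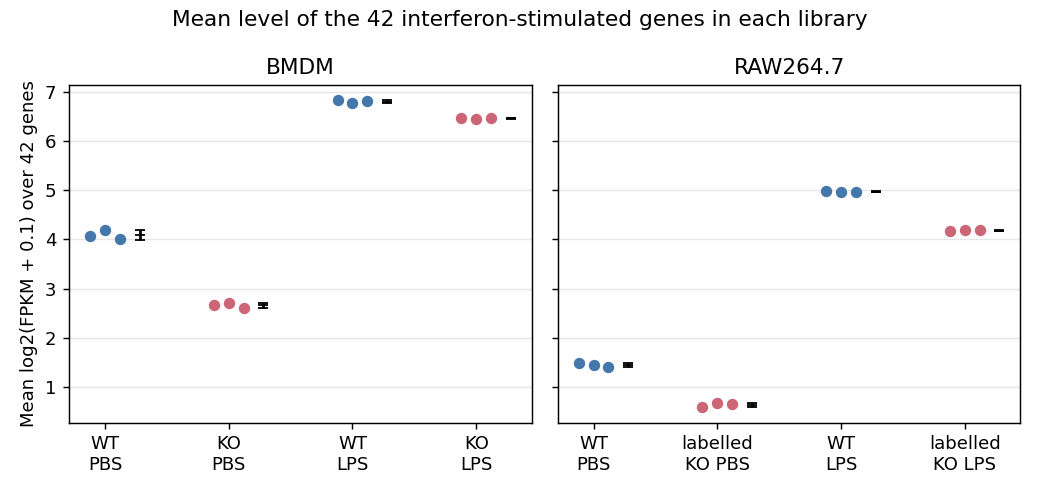
The mean of log2(FPKM + 0.1) over the 42 genes is plotted for each of the 24 libraries, by group, for BMDM on the left and RAW264.7 on the right. Points are libraries and the black bars beside them are the group mean and SD (n = 3). The knockout points lie below the wild-type points in every pairing, by most in BMDM with PBS, where wild type sits at 4.00 to 4.20 and knockout at 2.62 to 2.71.

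Isg15 encodes the ubiquitin-like protein that is conjugated to other proteins during the interferon response. Its FPKM in BMDM was 26.4, 28.9 and 23.98 in wild type with PBS and 3.73, 4.91 and 3.53 in knockout. With LPS it was 842, 704 and 728 in wild type and 682, 659.8 and 692 in knockout. The PBS libraries were thus 6.51-fold apart by their means, while the LPS libraries differed 1.12-fold and did not pass the test. In RAW264.7 Isg15 was at 2.56, 2.03 and 2.27 in wild type with PBS and 0.52, 0.18 and 0.2 in the labelled knockout, and at 430.0, 429.7 and 428 and 339.7, 309 and 323 with LPS. Replicate 1 of the labelled knockout lay between the other 2 and wild type, and the PBS fold of 7.62 between the genotypes became 12.04 without it.

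Usp18, the protease that removes ISG15 and also restrains the interferon receptor, had the same order of groups. Its FPKM in BMDM was 7.57, 9.04 and 7.40 in wild type with PBS, 1.09, 1.14 and 1.49 in knockout with PBS, 197, 179 and 182 in wild type with LPS and 154, 151 and 153 in knockout with LPS. In RAW264.7 the 4 groups in the same order gave 2.93, 2.02 and 2.62, then 0.3, 0.13 and 0.18, then 131, 137 and 139.6, then 59.8, 61.01 and 63.5. Unlike Isg15, Usp18 stayed past the test in RAW264.7 with LPS, where the labelled knockout was 2.21-fold lower.

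Rsad2 encodes viperin, a radical SAM enzyme that makes a chain-terminating nucleotide, and was the most abundant of the 42 transcripts in BMDM with LPS. Its FPKM was 32.5, 37.7 and 31.2 in wild-type BMDM with PBS, 6.84, 7.99 and 6.77 in knockout with PBS, 3353, 3383 and 3403 in wild type with LPS and 2738, 2706 and 2643 in knockout with LPS. In RAW264.7 it was near the limit of detection with PBS, at 0.26, 0.07 and 0.07 in wild type and 0.01, 0.04 and 0 in the labelled knockout, the last on 4 counts over 3 libraries. With LPS it reached 62.9, 59.1 and 61.3 in wild type and 6.22, 5.50 and 6.18 in the labelled knockout, 10.2-fold lower.

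Mx1 is a gene of the dynamin-like GTPase family, and only its RNA was measured here. Its FPKM in BMDM was 12.5, 14.4 and 11.2 in wild type with PBS, 2.41, 2.44 and 2.02 in knockout with PBS, 721, 738 and 743 in wild type with LPS and 577, 583 and 609.5 in knockout with LPS. In RAW264.7 with PBS there were 2 counts over the 3 libraries of either genotype, so no fold against PBS is given, and with LPS the FPKM was 3.43, 3.61 and 3.39 in wild type and 0.61, 0.9 and 0.97 in the labelled knockout. The labelled knockout lay below wild type in all 3 LPS libraries.

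Bst2 encodes tetherin, a membrane protein that holds budding virions at the cell surface. Its FPKM in BMDM was 133, 156 and 134 in wild type with PBS, 46.2, 52.1 and 48.5 in knockout with PBS, 253, 211 and 215 in wild type with LPS and 167, 158 and 164 in knockout with LPS. In RAW264.7 it was 79.4, 72.99 and 68.2 in wild type with PBS, 33.7, 19.5 and 17.5 in the labelled knockout with PBS, 266, 266 and 266 in wild type with LPS and 101, 104 and 108 in the labelled knockout with LPS. No library of a knockout group reached the wild-type range of the same treatment in either cell type.

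Ifi27l2a encodes a small hydrophobic protein of the interferon-inducible IFI27 family, and it was the one gene of these 6 that LPS did not raise in wild-type cells. Its FPKM in BMDM was 60.9, 67.6 and 60.1 in wild type with PBS, 8.20, 8.22 and 6.82 in knockout with PBS, 49.6, 44.3 and 44.5 in wild type with LPS and 12.2, 11.3 and 10.6 in knockout with LPS. In RAW264.7 it was 144, 148 and 137 in wild type with PBS, 27.1, 13.8 and 13.1 in the labelled knockout with PBS, 139.9, 134 and 141 in wild type with LPS and 15.96, 15.1 and 13.9 in the labelled knockout with LPS. The genotypes were separated by a wide margin in all 4 pairings, with the knockout 8.11-fold and 4.06-fold lower in BMDM and 7.93-fold and 9.23-fold lower in RAW264.7, with PBS and LPS respectively. Without replicate 1 of the labelled knockout the PBS fold in RAW264.7 was 10.6.

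**Figure D2:**
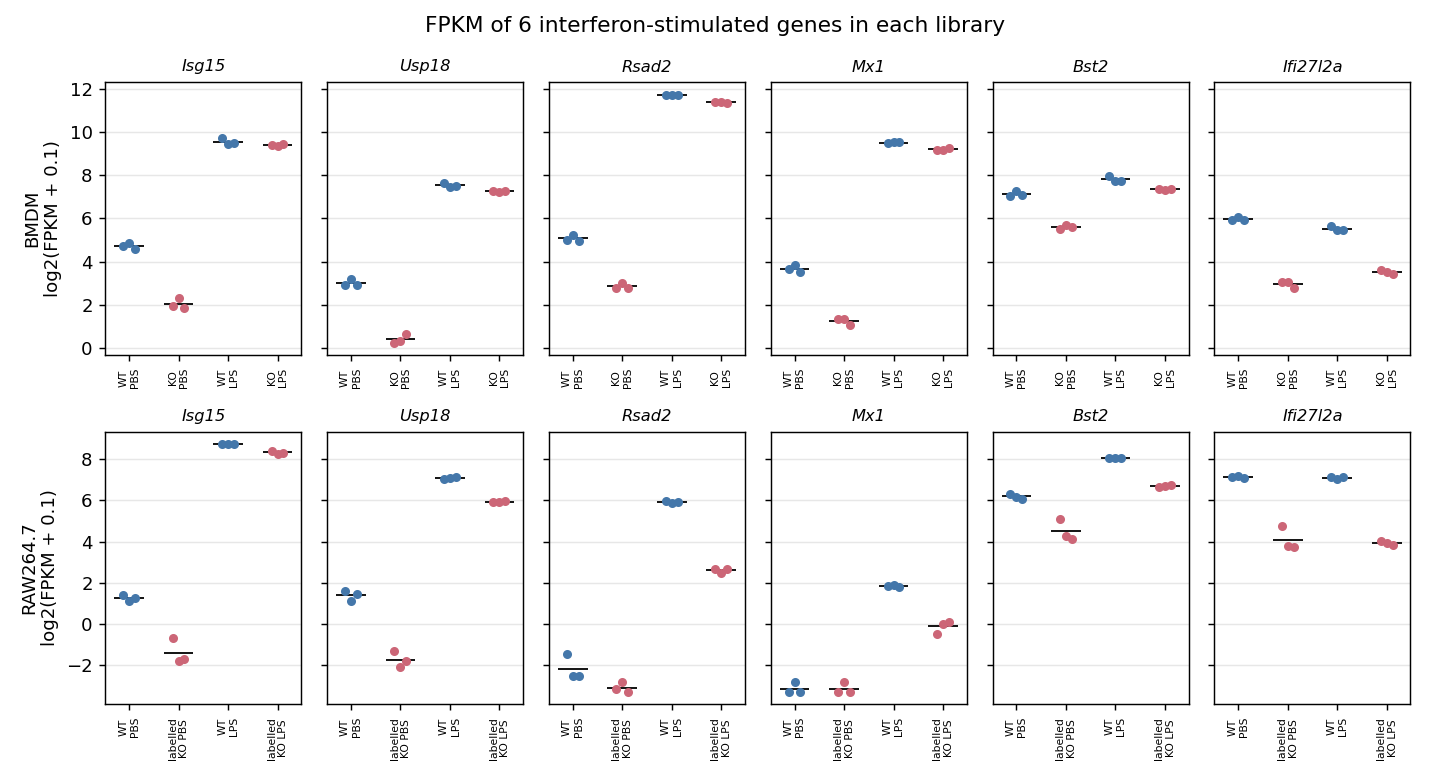
The level of Isg15, Usp18, Rsad2, Mx1, Bst2 and Ifi27l2a is plotted as log2(FPKM + 0.1) for each library, with BMDM in the upper row and RAW264.7 in the lower. Points are libraries (3 per group) and horizontal bars are group means. In BMDM the knockout lies far below wild type with PBS in all 6 panels and close to it with LPS in all but Ifi27l2a. In RAW264.7, Rsad2 and Mx1 are near the floor of the scale with PBS.

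With PBS, Olfml3 knockout BMDM had lower levels of most of the 42 genes. Of the 42, 37 were lower, 0 were higher and 5 did not pass the test, where the test was limma on log2(FPKM + 0.1) with Benjamini-Hochberg adjustment over all genes and a call needed an adjusted p under 0.05 and a fold of at least 1.5. Over all 26973 genes tested, 0.916% were called lower and 0.901% higher. The median log2 fold change was -1.26 over the 42 genes and 0.01 over all genes tested, and all 42 values were below 0. The 3 wild-type libraries all lay above the 3 knockout libraries for 41 genes, against 7.52% of all genes. Adjusted p-values of the 37 ran from 5.74e-08 to 0.000455. At an unadjusted p under 0.05 limma gave 41 lower and 0 higher, and edgeR and DESeq2 on the counts each called 39 lower and 0 higher.

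The largest differences with PBS in BMDM were those of Rtp4, Ifi44 and Ifi27l2a. Rtp4, which encodes a Golgi chaperone of G protein-coupled receptors, had an FPKM of 43.4, 53.3 and 41.5 in wild type and 4.64, 4.58 and 3.28 in knockout, a log2 fold change of -3.44 (SE 0.14). Ifi44, an interferon-induced gene of incompletely known function, was at 2.18, 2.27 and 1.93 in wild type and 0.14, 0.13 and 0.17 in knockout, a log2 fold change of -3.17 (SE 0.081). In both genes every knockout library was many times below the lowest wild-type library.

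By role, the ISG15 conjugation genes all fell, 4 of 4, with a median log2 fold change of -1.72. The smallest change among them was that of Uba7, which encodes the activating enzyme of the ISG15 cascade, at -0.72, and Herc6, a ligase of that cascade in mice, was at -0.84. Of the 10 genes for nucleotide and nucleic acid enzymes, 9 fell. They included Cmpk2, a mitochondrial nucleotide kinase whose gene lies next to Rsad2 on chromosome 12, at -2.02, Isg20, a 3′ to 5′ exonuclease, at -1.83, and Eif2ak2, which encodes the double-stranded RNA-activated kinase PKR, at -0.87. The RNA helicase-like genes Ddx60 and Helz2 were at -1.80 and -1.43, and Samd9l, an antiviral restriction factor, at -0.97. Samhd1, a dNTP hydrolase, and Adar, which edits adenosines in double-stranded RNA, fell least among the 9, both at -0.69.

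Both dynamin-like GTPases fell, Mx2 at -2.12. All 5 ADP-ribosylation genes fell, with a median of -0.83. They were Parp9 at -0.81 and its partner Dtx3l at -0.83, which form a ligase complex, and the ADP-ribosyltransferase genes Parp10, Parp12 and Parp14, of which Parp14 changed most, at -1.16. Parp9 and Dtx3l overlap on opposite strands, and the strand setting of the count was not given in the sources used here, so their reads cannot be fully told apart. Of the 5 TRIM ligase genes, Trim30a at -1.31, Trim30d at -1.89 and Trim34a at -0.92 fell, while Trim21 and Trim25 did not pass.

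All 5 membrane and secreted genes fell, with a median of -1.62. Siglec1, a sialic acid receptor known as CD169, had an FPKM of 38.6, 42.6 and 37.7 in wild type and 12.6, 12.9 and 13.04 in knockout. Lgals3bp, which encodes a secreted galectin-3 ligand, was the most abundant of the 42 at rest, at 252, 287 and 249.7 in wild type and 83.99, 84.3 and 81.1 in knockout. Lgals9, a galectin gene, was at -1.18 on the log2 scale. Xaf1, whose product opposes the apoptosis inhibitor XIAP, was at -1.86. Of the 6 nuclear genes 5 fell, among them Sp100, a component of PML nuclear bodies, at -1.31, Ifi35 at -1.21, Daxx, a histone chaperone, at -0.72 and the PHD finger genes Phf11b at -2.10 and Phf11d at -1.98. Epsti1, first described as an epithelial-stromal interaction gene, was at -0.99. Phf11b and Phf11d, Trim30a and Trim30d, and Mx1 and Mx2 are close paralogs, and reads that fit both members of such a pair may have been split by the counting.

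The 5 genes that did not pass with PBS in BMDM were Nmi, Pnpt1, Tor3a, Trim21 and Trim25. Pnpt1, a mitochondrial RNA exonuclease gene, had an FPKM of 12.2, 12.6 and 10.99 in wild type and 10.9, 11.03 and 10.9 in knockout. Trim25, a ligase that acts on the RNA sensor RIG-I, was at 53.2, 54.2 and 54.3 in wild type and 46.3, 46.95 and 45.6 in knockout, and Trim21, an intracellular antibody receptor, was at 8.77, 9.79 and 9.74 and 7.18, 6.83 and 7.04. Of these genes 4 of the 5 had an adjusted p under 0.05 with a fold under 1.5, the exception being Pnpt1 (adjusted p = 0.344 by limma). Among the genes with a promoter window, the median log2 fold change was -1.31 over the 15 with an ISRE core and -0.99 over the 17 without. Of the 15 with a core 13 were called lower, and of the 17 without a core 15 were. This is a description and was not tested.

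With LPS, the difference between the genotypes in BMDM was smaller for most of these genes. Of the 42, 7 were lower in knockout, 0 were higher and 35 did not pass, against 1.53% of all genes called lower and 3.23% higher. The median log2 fold change was -0.23 over the 42 genes, against 0.043 over all genes tested and 0.14 over the genes with FPKM of 1 or more in a group. The 3 knockout libraries still lay below the 3 wild-type libraries for 37 genes, against 6.75% of all genes, so small differences in one direction were frequent among these genes below the fold of 1.5. Under an adjusted p alone 20 were lower and 0 higher, and at an unadjusted p under 0.05 limma gave 29 lower and 0 higher. On the counts edgeR called 10 lower and 0 higher, and DESeq2 11 and 0.

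The 7 that fell in knockout with LPS, all of which had also fallen with PBS, were Cmpk2, Ifi27l2a, Ifi44, Isg20, Lgals3bp, Phf11b and Siglec1. After Ifi27l2a, the largest differences were those of Siglec1, with an FPKM of 11.8, 11.5 and 13.4 in wild type and 5.75, 5.57 and 6.27 in knockout, and Ifi44, with 27.9, 25.7 and 26 and 14.7, 13.4 and 13.5. Siglec1 was 2.09-fold lower and Ifi44 1.91-fold lower in knockout. Cmpk2 was at 1545, 1438 and 1453 in wild type and 992, 964 and 960.3 in knockout. The calls of Cmpk2 and Phf11b were lost without replicate 1 of the wild-type LPS group, which leaves 5. That replicate was the highest of its group for 24 of the 42 genes. Chi-square per degree of freedom, a measure of the difference between a pair of libraries, was 10.4 and 8.5 between it and replicates 2 and 3. The value was 4.76 between replicates 2 and 3, and 1.76 to 2.68 in the other BMDM groups. The correlation of replicate 1 across genes was 0.985 with its own group and 0.980 with the knockout LPS libraries.

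Isg15, Usp18, Rsad2, Mx1 and Bst2 had log2 fold changes of -0.16, -0.28, -0.33, -0.32 and -0.47 with LPS, none of them called. The smallest differences were those of Pnpt1, Trim21 and Tor3a, a torsin ATPase gene. Pnpt1 was at 39.1, 38.5 and 37.9 in wild type and 38.2, 39.2 and 38.7 in knockout, Trim21 at 65.7, 60.1 and 59.8 and 62.1, 59.1 and 60.2, and Tor3a at 159, 153 and 154 and 153, 149 and 152. The groups overlapped in all 3. Parp14 was the only gene of the 42 besides Pnpt1 with a value above 0, at 0.13, which was not called. Median-ratio scaling, which sets the median gene of each library to the same level, lowered all knockout minus wild-type values with LPS in BMDM by 0.16, and 11 genes were then called lower, Bst2 among them at -0.63.

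**Figure D3:**
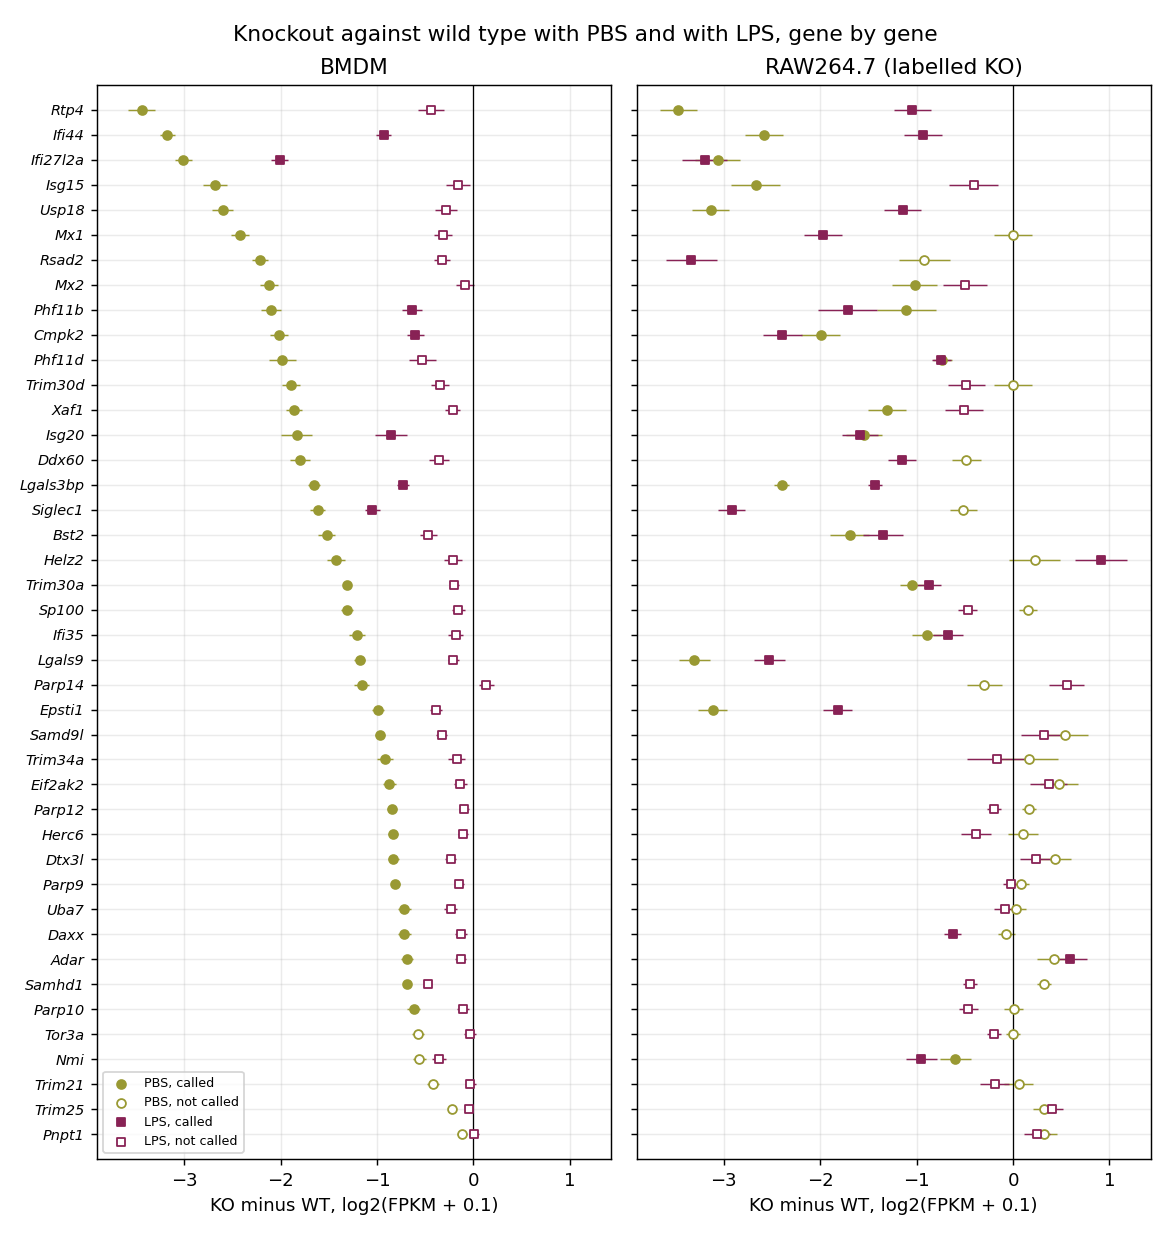
The difference knockout minus wild type in log2(FPKM + 0.1) is plotted for each of the 42 genes, with PBS (circles) and with LPS (squares), for BMDM on the left and RAW264.7 on the right, in the order of the BMDM values with PBS. Horizontal bars are the SE from limma, and filled symbols were called at an adjusted p under 0.05 and a fold of at least 1.5. In BMDM 37 circles are filled and all 42 lie left of 0, and the squares cluster nearer to 0. In RAW264.7 the genes split, with 18 filled circles on the left and others at or right of 0.

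LPS raised nearly all of these genes in BMDM of either genotype. In wild type 38 of the 42 rose and 1 fell, with a median log2 fold change of 2.64, against 7.94% of all genes called higher, 32.5% lower and a median of -0.30 over all genes tested. In knockout 40 rose and 1 fell, with a median of 3.40, against 8.02% of all genes called higher and 30.9% lower. In the nucleic acid enzyme group 10 of 10 rose in both genotypes, in the ISG15 group 4 of 4, and among ADP-ribosylation genes 5 of 5.

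The strongest induction in BMDM was that of Cmpk2, Rsad2 and Mx1. Cmpk2 went from an FPKM of 12.4, 14.2 and 11.7 to 1545, 1438 and 1453 in wild type, 116-fold by the means, and from 3.05, 3.42 and 2.76 to 992, 964 and 960.3 in knockout, 316-fold. Rsad2 rose 99.9-fold in wild type and 374-fold in knockout, and Mx1 rose 57.7-fold and 258-fold. The larger fold in knockout went with a lower PBS level, and the LPS levels of these genes were lower in knockout as well.

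A few genes responded weakly or fell. Siglec1 fell with LPS, from 38.6, 42.6 and 37.7 to 11.8, 11.5 and 13.4 in wild type and from 12.6, 12.9 and 13.04 to 5.75, 5.57 and 6.27 in knockout. Ifi27l2a had a log2 fold change of -0.45 in wild type and 0.55 in knockout, neither called. Lgals3bp went from 252, 287 and 249.7 to 319, 289.6 and 299.5 in wild type, which was not called, and from 83.99, 84.3 and 81.1 to 183, 180.3 and 184 in knockout, which was. Trim25 went from 53.2, 54.2 and 54.3 to 73.5, 75.9 and 75.5 in wild type, not called, and to 72.3, 73.01 and 72.4 in knockout, where the rise of 1.57-fold passed. Median-ratio scaling added 0.80 to LPS effects in wild-type BMDM and 0.69 in knockout. On that scale the wild-type value of Ifi27l2a turned to 0.36, and Siglec1 stood at -0.89 in wild type and -0.44 in knockout, the latter no longer called. Lgals3bp in wild type was then called, at 1.01, as were Trim25 in wild type, at 1.28, and Ifi27l2a in knockout, at 1.24, and edgeR and DESeq2 gave the same calls.

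The LPS effect was larger in knockout than in wild-type BMDM for most of the genes. The interaction term, the LPS effect in knockout minus that in wild type, was higher for 32 of the 42 genes and lower for 0, against 1.91% of all genes called higher and 1.02% lower, and edgeR and DESeq2 each called 27 higher and 0 lower. The median was 0.97, against 0.053 over all genes tested, and all 42 values were above 0. This term uses the same libraries as the comparisons already given and equals the LPS difference between genotypes minus the PBS difference. It was largest for Rtp4 at 3.00 (SE 0.20), Isg15 at 2.53 and Usp18 at 2.32. Rtp4 with LPS stood at 208, 186 and 181 in wild type and 141, 142 and 140.0 in knockout, so a PBS gap of 11.05-fold had narrowed to 1.36-fold. The interaction was smallest for Pnpt1 at 0.13, Trim25 at 0.17 and Nmi at 0.21, none called. Nmi, whose product binds STAT proteins, had an FPKM of 7.86, 7.93 and 7.81 in wild type with PBS, 5.39, 5.51 and 5.01 in knockout with PBS, 48.6, 41.1 and 42.4 in wild type with LPS and 35.8, 33.4 and 33.7 in knockout with LPS. Nmi was 1.48-fold lower in knockout with PBS and 1.28-fold lower with LPS. Median-ratio scaling lowered the interaction by 0.11 and left 26 called.

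In RAW264.7 with PBS the genes divided into some that were lower in the libraries labelled knockout and others with little difference. Of the 42, 18 were lower, 0 were higher and 24 did not pass, against 3.77% of all 26740 genes called lower and 4.79% higher. The median log2 fold change was -0.39 over the 42 genes and 0.022 over all genes tested, and -0.48 over the 41 genes without Trim30d. The labelled knockout libraries lay below all wild-type libraries for 21 genes, against 10.4% of all genes. They lay above all wild-type libraries for 2 genes, and for 19 the groups overlapped. At an unadjusted p under 0.05 limma gave 21 lower and 8 higher, and edgeR and DESeq2 each called 21 lower and 0 higher. Without replicate 1 of the labelled knockout, 18 were lower and 5 higher, namely Adar, Dtx3l, Eif2ak2, Helz2 and Samd9l.

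The largest differences were those of Rtp4, Lgals9 and Usp18. Rtp4 had an FPKM of 3.87, 2.70 and 3.28 in wild type and 0.28, 0.12 and 0.23 in the labelled knockout, a log2 fold change of -3.47 (SE 0.19). Lgals9 was at 3.50, 3.57 and 3.77 and 0.26, 0.2 and 0.39, a log2 fold change of -3.31 (SE 0.16). Of the membrane and secreted group 4 of 5 fell, the exception being Siglec1, which had 5 counts over the labelled knockout PBS libraries. Both Ifi27l2a and Xaf1 fell, as did 4 of the 6 nuclear genes, Ifi35, Nmi, Phf11b and Phf11d, and among the remaining genes Ifi44 at -2.58 and Epsti1 at -3.12.

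The ISG15 group was divided, since Isg15 and Usp18 fell while Uba7 at 0.027 and Herc6 at 0.11 did not pass. None of the 5 ADP-ribosylation genes passed, and among nucleic acid enzymes Cmpk2 and Isg20 fell, 2 of 10. The smallest differences were those of Mx1 and Trim30d, which had 2 and 0 counts in each genotype with PBS, and of Tor3a, at 10.6, 9.95 and 11.3 in wild type and 10.3, 11.03 and 10.48 in the labelled knockout. In several genes that did not pass, the replicates of the labelled knockout were themselves divided. Eif2ak2 was at 7.44, 13.1 and 13.6 in them and 8.01, 8.14 and 7.42 in wild type, and Samd9l at 4.06, 7.96 and 8.61 and 4.42, 4.86 and 4.12. In both, replicate 1 lay in or near the wild-type range and the other 2 above it.

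With LPS in RAW264.7, 20 of the 42 genes were lower in the libraries labelled knockout, 2 were higher and 20 did not pass, against 7.6% of all genes called lower and 9.73% called higher. The median log2 fold change was -0.50 over the 42 genes and 0 over all genes tested. The labelled knockout libraries lay below all wild-type libraries for 29 genes, against 18.6% of all genes. They lay above all wild-type libraries for 8 genes, and for 5 the groups overlapped. Under an adjusted p alone 23 were lower and 4 higher, and at an unadjusted p under 0.05 limma gave 28 lower and 4 higher. All 5 membrane and secreted genes fell and 5 of the 6 nuclear genes. In this treatment 15 of the 20 had also fallen with PBS, and Daxx, Ddx60, Mx1, Rsad2 and Siglec1 had not.

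On the log2(FPKM + 0.1) scale Rsad2 fell most, followed by Ifi27l2a and Siglec1, while by the ratio of mean FPKM Siglec1 fell most. Siglec1 had an FPKM of 2.15, 1.90 and 1.70 in wild type and 0.17, 0.14 and 0.19 in the labelled knockout, 11.5-fold lower. Cmpk2, next to Rsad2 in the genome, was at 45.1, 44.6 and 43.9 and 8.09, 8.33 and 8.77, and Isg20 was at 31.2, 29.7 and 27.5 and 9.56, 10.1 and 9.53. Isg15 differed by -0.41 and did not pass.

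The 2 genes that were higher were Adar and Helz2, which encodes a helicase with a zinc finger domain. Adar was at 44.5, 44.1 and 42.6 in wild type and 64.5, 65.9 and 66.9 in the labelled knockout, and Helz2 at 32.8, 33.03 and 32.5 and 62.9, 60.99 and 61.9. The groups did not overlap in either gene, but both calls were lost when any 1 of the 6 LPS libraries was left out and with a pseudocount of 0.01. The rise of Adar was 1.503-fold, next to the threshold, and was also not called under edgeR (0.54, adjusted p = 5.32e-05) or under median-ratio scaling. The smallest differences were those of Parp9, at 45.7, 47.9 and 48.3 in wild type and 45.8, 46.05 and 47.3 in the labelled knockout, Uba7, at 14.1, 14.6 and 16.6 and 13.8, 15.1 and 13.8, and Trim34a, at 3.19, 2.44 and 3.26 and 2.78, 2.43 and 2.61. These groups overlapped.

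LPS raised 40 of 41 genes in wild-type RAW264.7 cells and 39 of 41 in those labelled knockout, against 5.8% and 7.45% of all genes called higher, with medians of 3.08 and 2.99. These counts leave out Trim30d, which passed the filter through its LPS libraries alone. The gene not raised in wild type was Ifi27l2a, at -0.046, and in the labelled knockout Samhd1 did not pass either. In wild type Rsad2, Isg15 and Mx2 rose most, with log2 fold changes of 8.13, 7.50 and 7.36, on 24, 68 and 32 counts over the 3 PBS libraries. Mx2 went from 0.29, 0.1 and 0.25 to 47.3, 51.6 and 49.5 in wild type and from 0.07, 0.02 and 0.06 to 37.2, 33.6 and 34.3 in the labelled knockout, the PBS value of the latter resting on 8 counts. Samhd1 was at 16.4, 15.5 and 16.2 with PBS and 23.4, 24.5 and 24.8 with LPS in wild type, a rise of 1.51-fold that lay next to the threshold, and at 18.8, 21.3 and 20.3 and 17.1, 18.4 and 17.9 in the labelled knockout. Trim30d reached 0.08, 0.02 and 0.09 in wild type and 0.05, 0 and 0 in the labelled knockout, so it was hardly detected in this line, and no fold against 0 is given. Median-ratio scaling added 0.24 in wild type and 0.27 in the labelled knockout, which turned Ifi27l2a in wild type to 0.19 and Samhd1 in the labelled knockout to 0.088.

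The interaction in RAW264.7 was higher for 6 of the 42 genes and lower for 4, against 0.905% and 1.04% of all genes, and its median was -0.11. Without replicate 1 of the labelled knockout with PBS, 8 were higher and 5 lower, with Bst2 and Parp14 added above and Sp100 below. The LPS effect was larger in the labelled knockout for Epsti1, Ifi44, Isg15, Lgals3bp, Rtp4 and Usp18, with Rtp4 the largest at 2.42. Rtp4 with LPS was at 129, 127 and 126 in wild type and 61.7, 60.1 and 62.8 in the labelled knockout. It was smaller for Rsad2, Siglec1, Mx1 and Samhd1. Of these, Rsad2, Siglec1 and Mx1 had at most 5 counts over the labelled knockout PBS libraries, so their terms depend on the pseudocount. On the counts with edgeR they were -0.76, -1.48 and -1.97, none called. The smallest terms were those of Phf11d at -0.012, Isg20 at -0.038 and Pnpt1 at -0.071. Phf11d was at 4.35, 4.27 and 3.72 in wild type with PBS, 2.41, 2.19 and 2.72 in the labelled knockout with PBS, 32.5, 33.2 and 33.9 in wild type with LPS and 19.7, 20.9 and 18.8 in the labelled knockout with LPS. Isg20 with PBS was at 0.64, 0.57 and 0.37 in wild type and 0.16, 0.07 and 0.11 in the labelled knockout. Pnpt1 was at 17.02, 20.4 and 19.4 in wild type with PBS, 18.9, 26.1 and 26.8 in the labelled knockout with PBS, 43.9, 47.6 and 48.6 in wild type with LPS and 54.1, 57.6 and 55.1 in the labelled knockout with LPS.

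**Figure D4:**
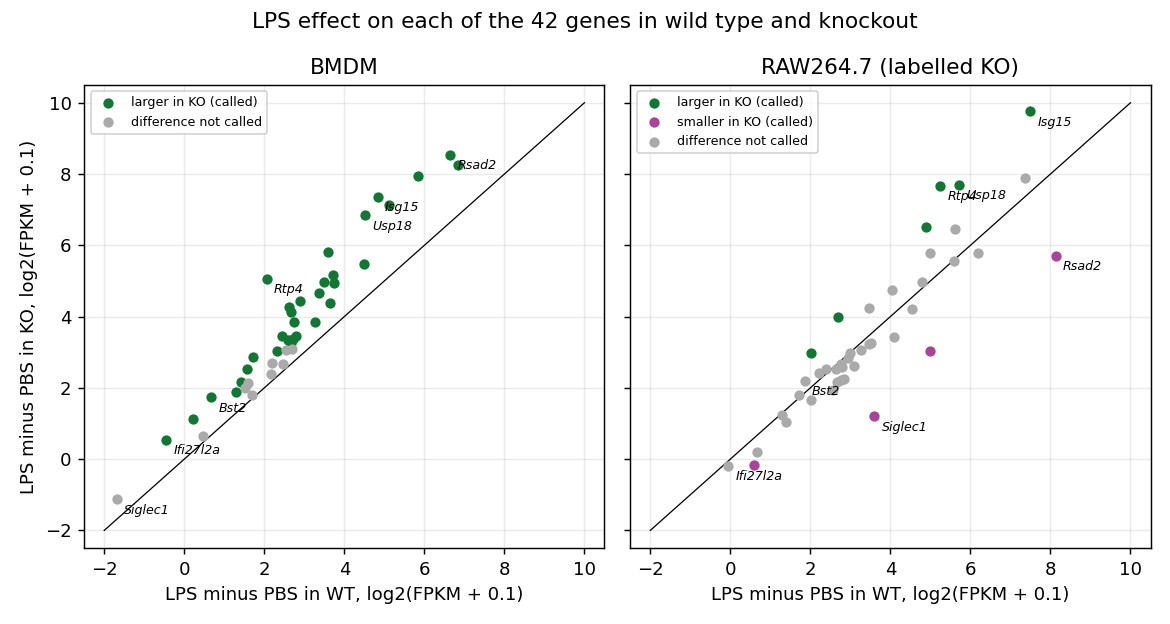
Each point is 1 of the 42 genes, with its LPS minus PBS difference in wild type on the x axis and in knockout on the y axis, both in log2(FPKM + 0.1), for BMDM on the left and RAW264.7 on the right. The line marks equal effects, and colours mark genes whose interaction term was called. In BMDM all points lie above the line, 32 of them called, while in RAW264.7 they lie on both sides, with 6 called above and 4 below.

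Set side by side, 17 genes were called lower with PBS both in knockout BMDM and in RAW264.7 labelled knockout. Another 20 were called in BMDM alone and 1, Nmi, in RAW264.7 alone. Over all genes tested, 0.916% were called lower in BMDM and 3.77% in RAW264.7. The 17 were Bst2, Cmpk2, Epsti1, Ifi27l2a, Ifi35, Ifi44, Isg15, Isg20, Lgals3bp, Lgals9, Mx2, Phf11b, Phf11d, Rtp4, Trim30a, Usp18 and Xaf1. Of the 20, Mx1, Rsad2, Ddx60, Siglec1, Trim30d and Trim34a were at or below 0.26 FPKM in every RAW264.7 PBS library, and Ddx60, Rsad2 and Siglec1 among them were below wild type in all labelled knockout libraries without passing the test. With LPS the 7 genes called lower in BMDM were also called lower in RAW264.7 labelled knockout. Over all genes tested, 1.53% were then called lower in BMDM and 7.6% in RAW264.7. The share of all genes called lower in both cell types was not taken in either treatment.

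The genes around these effectors were given by lists. Of 17 type I interferon genes, 1 was above 0 in RAW264.7 and 6 in BMDM. Ifnb1, which encodes interferon beta, was listed at 0 in all RAW264.7 PBS libraries and reached 18.8, 18.7 and 18.5 in wild type and 20.97, 22.4 and 23.5 in the labelled knockout with LPS, a difference that was not called. In BMDM with LPS it was at 6.53, 7.15 and 4.95 in wild type and 2.34, 2.51 and 2.73 in knockout, 2.46-fold lower (adjusted p = 0.00652 by limma). With PBS it was at 0, 0.06 and 0.12 in wild-type BMDM, which is 3 counts in all, and at 0 in knockout, so the ligand itself was at the limit of detection at rest. Ifna5, the other ligand called, was at 1.02, 0.56 and 1.18 in wild-type BMDM with LPS, on 35 counts, and listed at 0 in knockout.

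Among 10 genes of the receptor and of ISGF3 signalling, 3 were lower and 1 higher in knockout BMDM with PBS, and 1 was lower and 0 higher with LPS. The higher one was Socs3 and the lower one with LPS was Socs1, both inhibitors of cytokine signalling. Irf7, an interferon regulatory factor that is itself interferon-inducible, was at 21.9, 27.5 and 21.2 in wild type and 2.05, 2.13 and 1.97 in knockout with PBS, and at 201, 185 and 190.1 and 134, 126 and 133 with LPS. The ISGF3 subunit genes Stat2 and Irf9 had log2 fold changes of -1.30 and -0.91 with PBS, both called, and 0.23 and -0.055 with LPS, neither called. In RAW264.7 with PBS 3 of the 10, Irf7, Irf9 and Socs1, were lower and 1, Tyk2, was higher, and with LPS 2, Irf7 and Socs1, were lower and 1, Tyk2, was higher. Irf7 there was at 5.51, 5.12 and 4.57 in wild type and 0.43, 0.46 and 0.46 in the labelled knockout, while Stat2 at -0.042 did not pass.

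**Figure D5:**
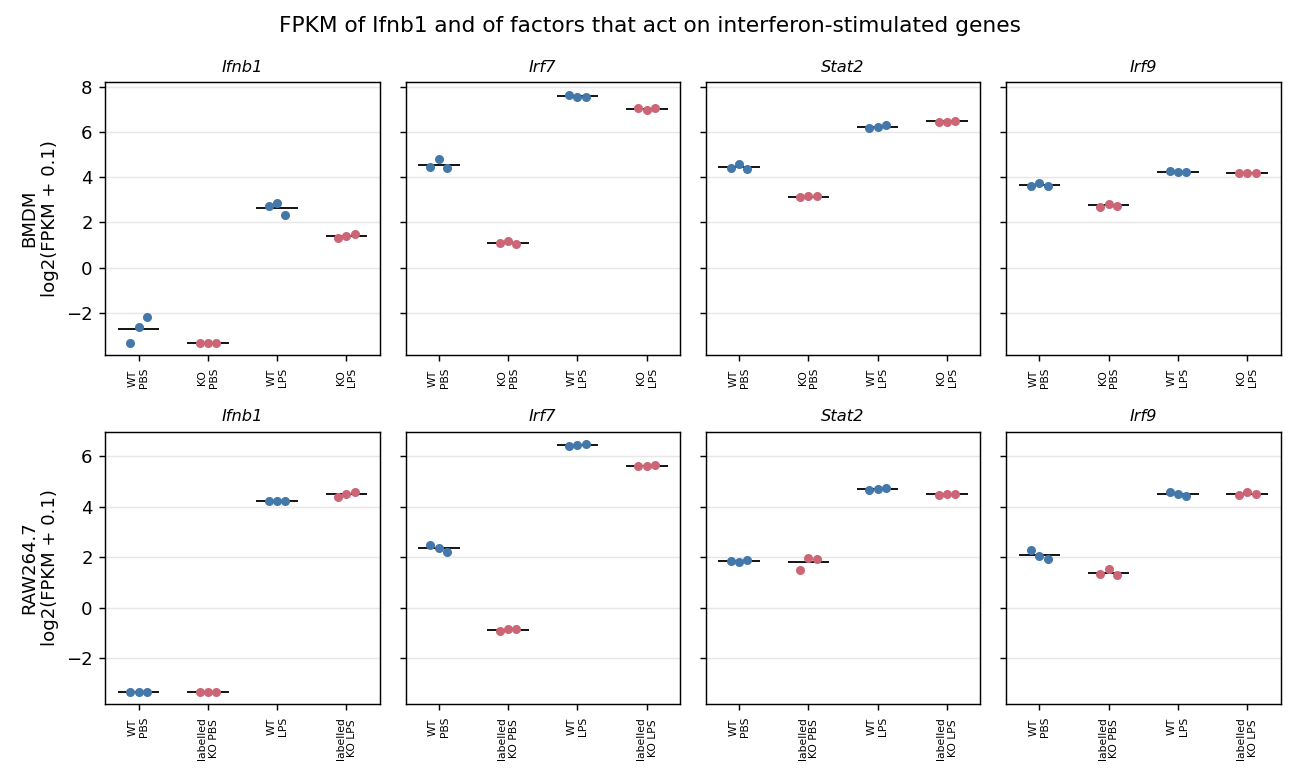
The level of Ifnb1, Irf7, Stat2 and Irf9 is plotted as log2(FPKM + 0.1) for each library, with BMDM in the upper row and RAW264.7 in the lower, where points are libraries (3 per group) and horizontal bars are group means. Irf7 with PBS is lower in knockout in both rows. Stat2 and Irf9 with PBS are lower in knockout BMDM, and with LPS they lie near or above wild type. Ifnb1 is at or near the floor with PBS.

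The OAS and IFIT genes, a further set of interferon-induced RNA sensors outside the 42, were lower in knockout BMDM with PBS in 13 of 14 cases, with a median of -2.58, and in 6 of 14 with LPS. In RAW264.7 with PBS 6 of 14 were lower and 1 higher, and with LPS 3 were lower and 0 higher. Of 23 genes that LPS induces through NF-kB, 0 were lower and 0 higher in knockout BMDM with PBS by limma (0 and 11 at an unadjusted p under 0.05), and 6 were higher and 0 lower with LPS. In RAW264.7 the counts for these 23 were 3 lower and 1 higher with PBS, and 2 lower and 4 higher with LPS. LPS raised all 23 in both cell types and in both genotypes. Plasmacytoid dendritic cell markers, a cell type known for making interferon, summed to 1.51 to 1.65 FPKM in wild-type BMDM with PBS and 1.37 to 1.72 in knockout. In RAW264.7 with PBS their sum was 2.31 to 3.19 in wild type and 11.1 to 12.3 in the labelled knockout, and the part of this difference in the results was not tested.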

How the data were processed

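RNA sequencing of 24 mouse macrophage libraries was analysed from the authors' gene tables, one per cell type, which hold deposited read counts per gene and deposited FPKM values computed by the authors from them. The submitters' processing notes name the build mm10, but only 2.83% of genes had the start and end of a GRCm38 annotation (GENCODE), so no table coordinate is printed. Neither the aligner nor the counter is named in the sources used here, nor is the strand setting. Groups followed the sample titles and library names. The genotype tag contradicts both in 12 of the 24 samples, and which of them is right was not tested. In those samples the direction of a genotype difference depends on this choice. The summed FPKM of a library was 292806 to 309475 in BMDM. In RAW264.7 it was 357349 to 367540 in wild type and 295256 to 311278 in the labelled knockout. The exception was replicate 1 of the labelled knockout with PBS, at 356156.

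Values were taken as log2(FPKM + 0.1), a scale on which folds of low genes are understated. They were fitted with limma 3.58.1 (R 4.3.3), two-sided, with 4 group means per cell type over 12 libraries. P-values were adjusted by the Benjamini-Hochberg method across every tested gene of a cell type, and calls needed an adjusted p under 0.05 and a fold of at least 1.5. edgeR 4.0.16 and DESeq2 1.42.0 on the counts, other pseudocounts (0.01 and 1), filters, scalings, a replicate block and leaving out each replicate were alternatives. The limma, edgeR and DESeq2 fits were tested on simulated counts, for both genotype comparisons and the LPS effect in wild type. The LPS effect in knockout, the interaction and the promoter search were not tested in this way. The genes and lists were chosen with earlier results of these data known, so no p is given for a mean over them. Values in every library are given for 6 genes fixed by name and, in each comparison, for the 3 largest called changes with a mean FPKM of at least 1, the 3 smallest and any called against the majority. Other genes given in every library were chosen after their values were seen. A gene of the signalling list is not reported here.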

Additional observations from a re-analysis of the deposited data

Results flagged for a closer look

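In BMDM the LPS effect differed between the genotypes, by limma's interaction term, for 32 of the 42 genes, all of them with the larger effect in knockout. Among the 6 genes followed in every group and Rtp4, the gene with the largest value, the LPS effect in knockout minus that in wild type was 3.00 on the log2 scale for Rtp4, 2.53 for Isg15, 2.32 for Usp18, 2.10 for Mx1, 1.89 for Rsad2, 1.05 for Bst2 and 1.00 for Ifi27l2a. These 7 genes were lower in all 3 knockout PBS libraries than in any wild-type PBS library. The same held for 41 of the 42 genes, against 7.52% of all genes. The interaction term contains this PBS difference.

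In RAW264.7 the effect differed in both directions, larger in the libraries labelled knockout for 6 genes and smaller for 4. The 3 largest of the 6 and all 4 of the others are given. Rtp4 differed by 2.42, Isg15 by 2.26 and Usp18 by 1.99 on the log2 scale, and Rsad2 by -2.42, Siglec1 by -2.40, Mx1 by -1.97 and Samhd1 by -0.77. The values of Rsad2, Siglec1 and Mx1 were not called with a pseudocount of 0.01 or on the counts.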

How the results depend on the processing

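In BMDM with PBS, 36 to 39 of the 42 genes were lower in knockout under every alternative with the fold threshold, and 0 were higher. Some counts moved by more than 1.5 times. In RAW264.7 with PBS 11 genes were called with a pseudocount of 1, and the RAW264.7 interaction gave 6 on the TPM scale. In BMDM with LPS 11 were called lower with median-ratio scaling and with DESeq2, and 20 under the adjusted p alone. With a pseudocount of 1 the mean of the 42 genes was 2.24, 1.80, 5.11 and 4.42 in RAW264.7 (wild type and labelled knockout with PBS, then the same with LPS), and 4.21 and 3.00 in BMDM with PBS and 6.48 in knockout BMDM with LPS. With median-ratio scaling it was 1.36, 0.526, 5.10 and 4.29 in RAW264.7 and 3.74, 2.28, 7.25 and 6.75 in BMDM, in the same order. The split of RAW264.7 interaction calls was 6 higher and 4 lower, against 9 and 2 with edgeR, 4 and 7 with a pseudocount of 1 and 5 and 1 on the TPM scale. TPM sets the summed FPKM of every library to the same total. On it the RAW264.7 genotype calls with LPS were 16 lower and 4 higher, against 20 and 2. Of all genes called in that comparison 75.0% were then higher, against 56.1% in the main fit. The cause of these shifts was not tested.

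Leaving out each replicate in turn gave 15 to 23 genes in RAW264.7 with PBS, 20 to 21 with LPS, 39 to 40 and 39 for the LPS effects in wild type and labelled knockout, and 10 to 13 for the interaction. In BMDM the ranges were 36 to 39, 5 to 7, 39, 41 to 42 and 28 to 34, in the same order of comparisons. The replicate numbers did not pair the samples: same-numbered libraries deviated from their group means with correlations of -0.039 to 0.084 in RAW264.7 and -0.058 to 0.071 in BMDM. A fit with the replicate number as a block gave 16, 21, 41, 39 and 10 calls in RAW264.7 and 37, 7, 39, 41 and 31 in BMDM. Genes under about 10 counts per group, such as Mx1, Trim30d and Rsad2 in RAW264.7 with PBS, limit what could be detected there.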
